A study of Mus musculus with 36 samples.

Results

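The 8 genes Rbm44, Fignl1, Hmgb2, Tmco1, AA465934, Pced1a, Mns1 and Cdk5rap1 were followed across 36 RNA-seq libraries of mouse forelimb, out of 50833 genes in the deposited count table. They lie outside the HoxD locus and were chosen by their levels in these same libraries, which differed between mutant lines alike in distal and proximal tissue. Differences between lines are therefore given as values with no test, and tests are kept for what that choice did not use. All 8 were found in the tables by gene name.

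The study deleted binding sites of CTCF, a zinc-finger protein that holds the ends of chromatin loops, with CRISPR/Cas9 at the Hoxd cluster, whose genes pattern the limb along its length. Of the 5 mutant alleles, by their names, Del(CBS1) lacks 1 site, Del(CBS1-2) lacks 2, Del(CBS1-3) lacks 3, Del(CBS1-4) lacks 4 and Del(CBS1-5) lacks 5, and each is set against WT. Every library came from an embryo at stage E12.5 of strain B6CBAF1, a hybrid background of C57BL/6 and CBA mice, and each of the 12 groups of genotype and tissue held 3 libraries. Distal forelimb holds the future digits and proximal forelimb the arm. Both tissues were taken from single pairs of limbs, so 18 embryos gave 36 libraries of poly(A) RNA. The labels give neither the zygosity of the mutants nor how many founders stand behind an allele, so a line and its allele cannot be told apart.

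The genes belong to different parts of cell biology. Hmgb2 encodes a chromatin protein with HMG boxes that bend DNA and is abundant in dividing cells. Fignl1 encodes an AAA ATPase that works in homologous recombination. AA465934 is a non-coding transcript whose gene holds the small nucleolar RNA Snord7, and Cdk5rap1 encodes an enzyme that adds methylthio groups to mitochondrial tRNAs. Tmco1 encodes a membrane protein of the endoplasmic reticulum that has been described as a calcium channel and as part of a translocon. Pced1a encodes a protein with a PC-esterase domain. Mns1 encodes a coiled-coil protein of cilia and sperm flagella, and Rbm44 an RNA-binding protein known from germ cells of mice.

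On mm10 the genes are spread over 5 chromosomes. Rbm44 spans chr1:91145101-91170795 (+) and Tmco1 chr1:167308378-167330785 (+). Pced1a spans chr2:130417683-130424687 (-) and Cdk5rap1 chr2:154335380-154373010 (-), on the chromosome of the deletions, 55.7 Mb and 79.7 Mb from Hoxd13. Hmgb2 spans chr8:57511907-57515999 (+) and Mns1 chr9:72438011-72462025 (+). Fignl1 spans chr11:11800288-11808962 (-) and AA465934 chr11:83291699-83294632 (+). Thus 6 of the 8 genes were on chromosomes other than that of the Hoxd cluster.

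Promoter sequence was found in RefSeq (build GRCm38.p6, 250 bases before to 50 bases after the start) for 7 of the 8 genes. Of these 7, which leave out Rbm44, AA465934 and Hmgb2 had the levels that spread furthest among embryos. Fignl1 transcripts share no 50-base word with other genes. The promoters of AA465934, Hmgb2 and Fignl1 are printed 5′ to 3′ at chr11:83291449-83291748 (+), chr8:57511593-57511892 (+) and chr11:11808913-11809212 (-). The RefSeq start of Hmgb2 lies upstream of the start given above, so its window ends at 57511892, before 57511907.
AA465934: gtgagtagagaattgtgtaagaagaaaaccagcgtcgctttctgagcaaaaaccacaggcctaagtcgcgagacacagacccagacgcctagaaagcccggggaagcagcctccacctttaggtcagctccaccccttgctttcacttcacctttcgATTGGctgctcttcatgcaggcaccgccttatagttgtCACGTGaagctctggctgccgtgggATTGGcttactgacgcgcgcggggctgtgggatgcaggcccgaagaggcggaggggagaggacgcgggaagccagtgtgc
Hmgb2: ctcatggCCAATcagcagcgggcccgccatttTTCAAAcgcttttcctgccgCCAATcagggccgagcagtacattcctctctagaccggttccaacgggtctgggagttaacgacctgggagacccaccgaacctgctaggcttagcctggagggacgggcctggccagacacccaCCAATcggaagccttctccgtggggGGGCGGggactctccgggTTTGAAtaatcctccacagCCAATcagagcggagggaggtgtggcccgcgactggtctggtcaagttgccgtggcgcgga
Fignl1: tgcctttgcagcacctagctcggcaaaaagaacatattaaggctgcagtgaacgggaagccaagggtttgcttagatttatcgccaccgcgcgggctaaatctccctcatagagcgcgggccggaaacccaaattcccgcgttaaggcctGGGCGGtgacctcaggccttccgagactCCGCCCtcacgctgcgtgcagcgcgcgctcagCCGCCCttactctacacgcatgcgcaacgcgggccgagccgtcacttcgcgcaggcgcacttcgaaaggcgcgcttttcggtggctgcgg
Capitals mark matches on either strand. The letters searched were GGGCGG, the GC box bound by Sp1 factors. CCAAT was searched as the box of the factor NF-Y. The ETS core was searched as CCGGAAG. The cell-cycle element CHR was searched as TTTGAA, the TATA box as TATAAA and the E-box as CACGTG. The motif of NRF1 was searched as well, and no matches overlapped in these 3 promoters. In this window AA465934 held 2 CCAAT boxes and 1 E-box, Hmgb2 held 4 CCAAT boxes, 2 CHR elements and 1 GC box, and Fignl1 held 3 GC boxes. Of all 32851 mouse promoters in the table, 37.4% held a CCAAT box, 35.7% a GC box, 17.9% a CHR element and 7.15% an E-box, while 8.86% held the ETS core, 13.6% a TATA box and 0.971% the NRF1 motif. CCAAT and CHR letters, which are common in promoters of cell-cycle genes, each stood more than once in that of Hmgb2. No motif was found in all 3 promoters.

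The libraries held 11062069 to 17727891 counts. Marker genes matched the tissue labels. Summed levels of 8 distal limb markers, Hoxd13 among them, were 2105 to 2524 CPM (counts scaled to library size) in distal libraries and 240 to 665 CPM in proximal ones, while 10 skeletal muscle genes summed to 14.5 to 131 CPM in distal libraries and 1658 to 2990 CPM in proximal ones. In such bulk samples, fewer cells of a type and less RNA per cell cannot be told apart. Muscle genes reached 66.1 to 131 CPM in the 3 distal Del(CBS1-2) libraries against 29.1 to 33.8 CPM in WT. In distal Del(CBS1-4) they reached 35.5 to 111 CPM, and in distal Del(CBS1-5) 16.0 to 27.6 CPM. In distal tissue 8 epidermal genes reached 567 to 669 CPM in Del(CBS1-2) against 468 to 483 CPM in WT. They were also above WT in Del(CBS1) (493 to 585 CPM), Del(CBS1-3) (493 to 574 CPM) and Del(CBS1-4) (547 to 563 CPM). The 6 nerve and Schwann cell genes reached 166 to 173 CPM in distal Del(CBS1-2) against 122 to 135 CPM in WT. They reached 143 to 153 CPM in distal Del(CBS1) and 137 to 158 CPM in distal Del(CBS1-4). The 6 erythroid genes summed to 2034 to 2203 CPM in distal Del(CBS1-2), 1772 to 2193 CPM in distal Del(CBS1-4) and 3013 to 5840 CPM in distal Del(CBS1-5) libraries, against 2372 to 3458 CPM in WT. In proximal tissue 7 macrophage genes summed to 95.1 to 107 CPM in Del(CBS1-2) against 73.9 to 84.7 CPM in WT. Proximal Del(CBS1-2) also stood outside WT in other sets. Muscle genes reached 2574 to 2842 CPM against 1867 to 2228 CPM in WT, and epidermal genes 466 to 497 against 312 to 438 CPM. The 7 endothelial genes reached 413 to 441 against 362 to 375 CPM, and distal limb markers 327 to 375 against 388 to 665 CPM. Erythroid genes reached 2987 to 3407 CPM in proximal Del(CBS1-5) against 1749 to 2417 CPM in WT. Nerve and Schwann cell genes reached 311 to 325 CPM in proximal Del(CBS1-3) against 278 to 304 CPM in WT. The part of such shifts in the values of these lines was not tested.

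Per unit of gene length, Tmco1 was the most abundant of the 8, with a mean of 54.1 FPKM in distal and 54.8 FPKM in proximal libraries. AA465934 followed at 36.2 and 34.9 FPKM, and Fignl1 at 17.98 and 13.9 FPKM. Pced1a, Hmgb2, Mns1 and Cdk5rap1 stood between 5.55 and 11.3 FPKM. Rbm44, at 0.06 FPKM in distal and 0.0848 FPKM in proximal libraries, was near the limit of detection.

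**Figure D1:**
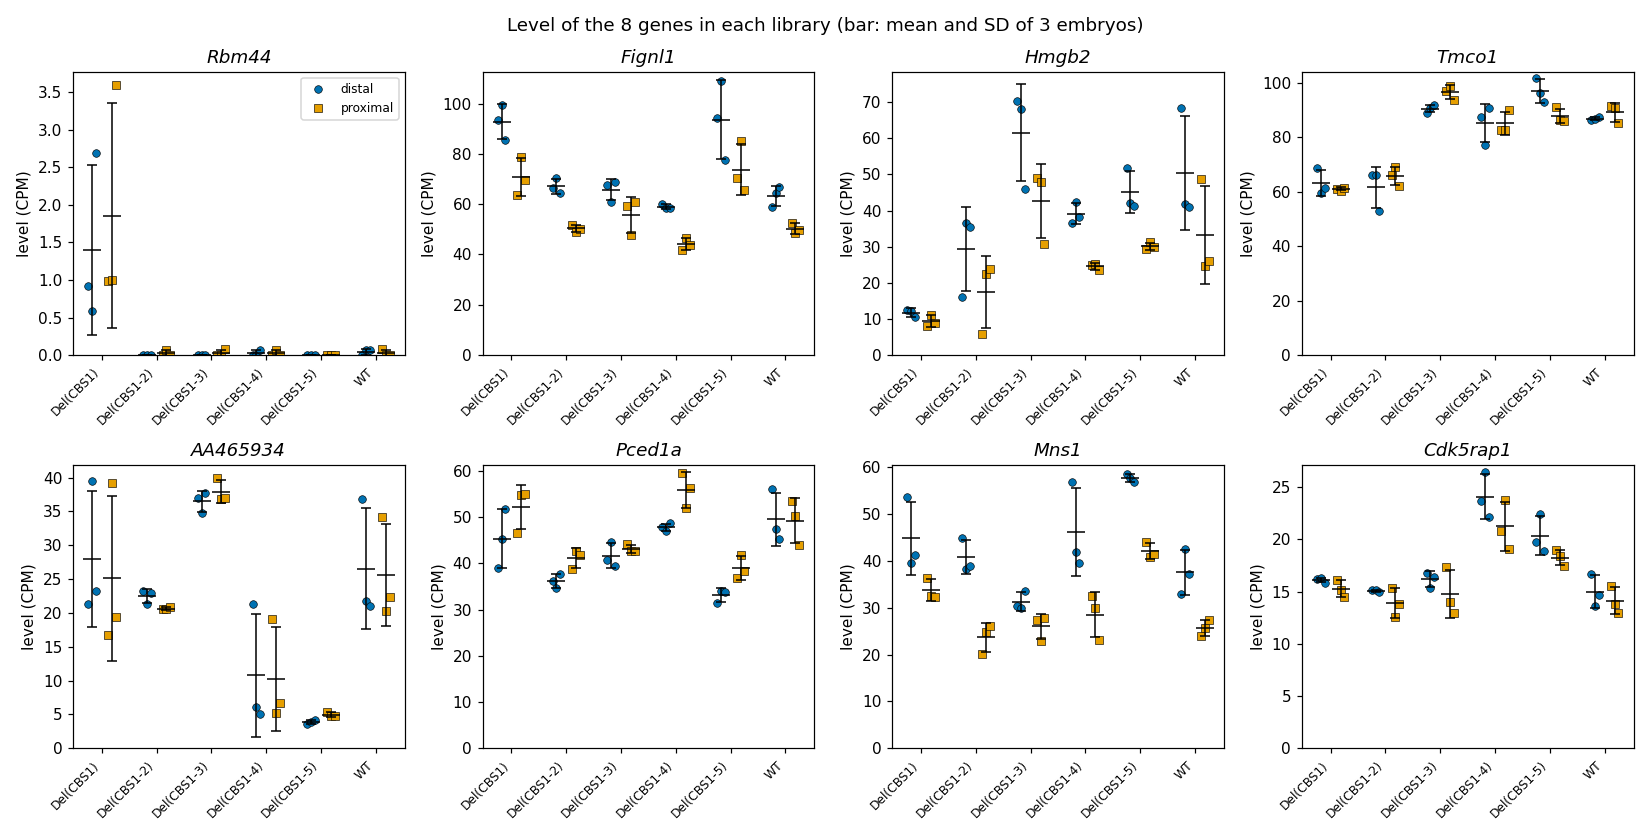
Level of each gene in every library (CPM, linear axis from 0, with its own scale for each gene), with the mutant lines from left to right and WT last. Blue circles are distal and orange squares proximal libraries, and bars give the mean and SD of 3 embryos; Rbm44 was above 1 count only in the Del(CBS1) libraries, and the low AA465934 values lie in Del(CBS1-4) and Del(CBS1-5).

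The levels of the 8 genes differed between lines by unequal amounts. From the highest to the lowest of the 6 line means, the difference was 3.07 (log2) in AA465934, 2.26 in Hmgb2, 0.79 in Mns1, 0.69 in Fignl1, 0.64 in Cdk5rap1, 0.59 in Tmco1 and 0.52 in Pced1a. Over all genes tested for differences among the genotypes, the median range was 0.31 in distal and 0.311 in proximal tissue. All 7 thus spread wider than the typical gene, which is what they were chosen for, and nothing is read from it. Among all genes, 19.7% of 15361 differed among the genotypes in distal tissue and 15.1% of 15813 in proximal tissue (edgeR, 5% false discovery rate). Rbm44 was too low for the distal test and passed the count filter in proximal tissue through Del(CBS1) alone.

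Hmgb2, the HMG-box chromatin protein, was low in Del(CBS1). The 3 distal Del(CBS1) libraries held 12.6, 12.3 and 10.5 CPM, against 68.5, 41.8 and 40.96 CPM in distal WT. The 3 proximal Del(CBS1) libraries held 8.01, 11.2 and 8.85 CPM, against 48.7, 24.6 and 26.1 CPM in proximal WT. Every Del(CBS1) library lay below every WT library of its tissue, and WT embryo 1 was high in both tissues. The fitted difference from WT was -2.10 ± 0.26 (log2, SE) in distal and -1.82 ± 0.35 in proximal tissue.

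Del(CBS1-2) was not uniform in Hmgb2. Embryo 1 of this line held 16.0 CPM distally and 5.87 CPM proximally, whereas embryos 2 and 3 held 36.5 and 35.6 CPM distally and 22.5 and 23.7 CPM proximally. All 6 libraries lay below the WT libraries of their tissue, but only embryo 1 came down to the levels of Del(CBS1). The mean log2 difference from WT was -0.83 in distal and -1.10 in proximal tissue, and -0.44 and -0.45 without embryo 1. Del(CBS1-3) averaged 61.5 ± 13.4 CPM distally and 42.6 ± 10.3 CPM proximally (SD, n = 3 each), Del(CBS1-4) 39.1 ± 2.88 and 24.5 ± 0.898 CPM, and Del(CBS1-5) 45.1 ± 5.87 and 30.2 ± 0.978 CPM, and each of these lines overlapped WT. Ordered by the mean of both tissues, 3 embryos (Del(CBS1-3) 1 and 2 and WT 1) held 58.1 to 59.7 CPM, 11 held 29.5 to 40.6 CPM, and 4 held 9.65 to 11.7 CPM. The lowest 4 were separated from the rest by a 2.51-fold gap and the upper 3 by a 1.43-fold gap. The ranges were drawn at these gaps, the widest in these same levels.

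Reads of Hmgb2 are not all unique to it. Of 3027 distinct 50-base words in its GENCODE transcripts, 18.7% also occur in 9 other genes, and 8 of these genes are processed pseudogenes. Those of the pseudogenes in the count table did not exceed 0.8 CPM in any library. The share of Hmgb2 reads that such copies take was not tested.

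Fignl1, the AAA ATPase of homologous recombination, stood higher in Del(CBS1) and in Del(CBS1-5). In distal tissue the Del(CBS1) libraries held 93.5, 99.3 and 85.4 CPM and the Del(CBS1-5) libraries 94.2, 109 and 77.7 CPM, against 58.8, 64.3 and 66.7 CPM in WT. In proximal tissue Del(CBS1) held 63.7, 78.9 and 69.7 CPM and Del(CBS1-5) 70.2, 85.1 and 65.8 CPM, against 52.7, 48.5 and 49.7 CPM in WT. Both lines lay above WT without overlap in both tissues. The differences from WT were 0.55 ± 0.09 in Del(CBS1) and 0.55 ± 0.09 in Del(CBS1-5) in distal tissue, and 0.49 ± 0.10 and 0.56 ± 0.10 in proximal tissue. In the other 3 lines the difference was between -0.19 and 0.15. Of these, Del(CBS1-4) lay below WT without overlap in proximal tissue, at 41.8, 46.6 and 43.8 CPM. No 50-base word of Fignl1 transcripts occurs in another gene.

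AA465934, the non-coding host of Snord7, was lowest in Del(CBS1-5). Its distal libraries held 3.63, 3.87 and 4.17 CPM in Del(CBS1-5), against 36.8, 21.8 and 21.04 CPM in WT. Its proximal libraries held 5.44, 4.75 and 4.76 CPM in Del(CBS1-5), against 34.2, 20.3 and 22.4 CPM in WT. No Del(CBS1-5) library came near a WT library, and the difference was -2.78 ± 0.41 in distal and -2.34 ± 0.39 in proximal tissue. Del(CBS1-3) held 36.9, 34.8 and 37.8 CPM distally and 39.9, 36.8 and 37.0 CPM proximally. These 6 libraries were close to WT embryo 1 and above WT embryos 2 and 3.

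Embryos of the other lines differed among themselves in AA465934. Del(CBS1-4) embryo 1 held 21.3 CPM distally and 19.1 CPM proximally, whereas embryos 2 and 3 held 6.04 and 5.07 CPM distally and 5.16 and 6.64 CPM proximally. Del(CBS1) embryo 2 held 39.5 CPM distally and 39.2 CPM proximally, whereas embryos 1 and 3 held 21.3 and 23.2 CPM distally and 16.8 and 19.4 CPM proximally. Del(CBS1-2) was even, at 22.5 ± 1.05 CPM distally and 20.6 ± 0.173 CPM proximally (SD, n = 3 each). The embryo that stood apart from its line did so in both of its tissues. Without embryo 1 of Del(CBS1-4), the mean log2 difference of this line from WT was -2.21 in distal and -2.08 in proximal tissue, against -1.56 and -1.52 with it. For Del(CBS1) the value was 0.07 in distal and -0.09 in proximal tissue, and -0.21 and -0.47 without embryo 2, so its distal direction rests on that embryo.

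Taken by embryo, the levels of AA465934 fell into 3 separate ranges. Ordered by the mean of both tissues, 5 embryos held 35.5 to 39.3 CPM, 8 held 19.03 to 21.9 CPM and 5 held 4.31 to 5.85 CPM, with a 1.62-fold gap between the upper and the middle range and a 3.25-fold gap below the middle one. The ranges did not overlap in either tissue: distal libraries lay at 34.8 to 39.5, 21.04 to 23.3 and 3.63 to 6.04 CPM, and proximal libraries at 34.2 to 39.9, 16.8 to 22.4 and 4.75 to 6.64 CPM. The upper range held all 3 Del(CBS1-3) embryos, Del(CBS1) embryo 2 and WT embryo 1. The lowest held all 3 Del(CBS1-5) embryos and Del(CBS1-4) embryos 2 and 3. WT, Del(CBS1) and Del(CBS1-4) each had embryos in a pair of ranges. The ranges were drawn at the widest gaps in these same levels and are a description only. Why embryos of a line differed was not tested.

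Snord7, which lies within AA465934, averaged 0.636 ± 0.212 CPM in distal Del(CBS1-5) and 1.08 ± 0.172 CPM in distal WT (SD, n = 3 each). Its mean was 0.696 to 0.775 CPM in the other distal mutant groups, with 0.696 CPM in Del(CBS1-3), where AA465934 was high. The distal means thus did not follow AA465934 from line to line. In proximal tissue Del(CBS1-3) stood at 0.951 CPM and WT at 0.994 CPM, against 0.554 to 0.774 CPM in the other mutant groups. At such low levels these counts cannot show whether Snord7 follows AA465934, and this was not tested. Of the 799 distinct 50-base words of AA465934, 0 occur in other genes.

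**Figure D2:**
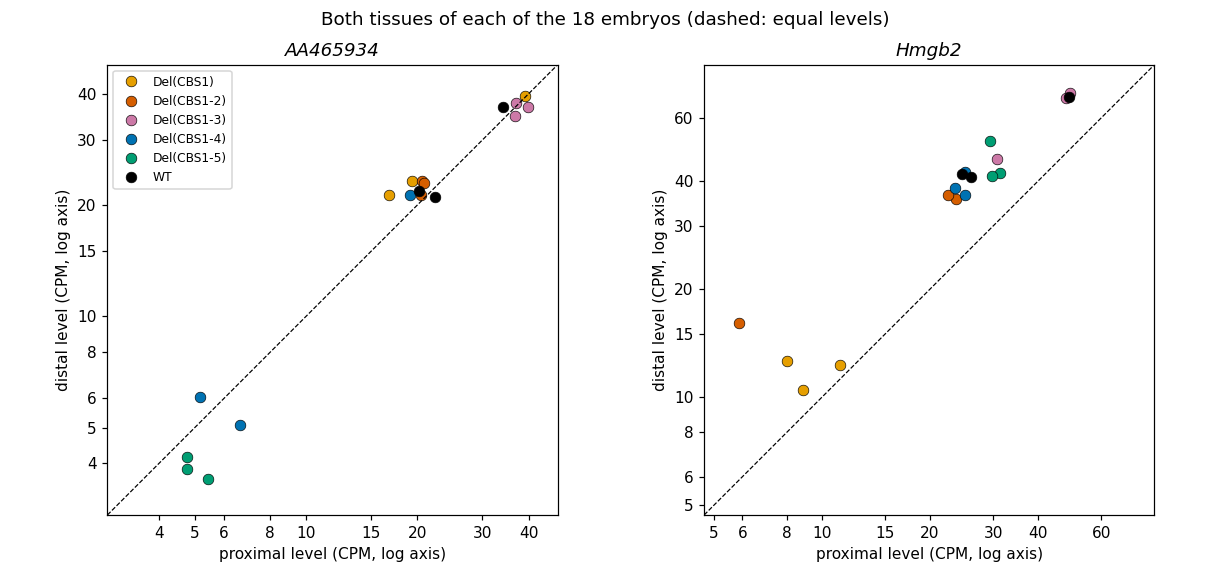
Distal level against proximal level (CPM, log axes) of AA465934 and Hmgb2, with 1 point per embryo, coloured by line, and a dashed line where both are equal. For AA465934 the 18 embryos sit in 3 separate clouds near that line, with means of both tissues of 35.5 to 39.3, 19.03 to 21.9 and 4.31 to 5.85 CPM, and for Hmgb2 all 18 lie above it.

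Cdk5rap1, the mitochondrial tRNA methylthiotransferase, stood higher in Del(CBS1-4) and Del(CBS1-5). In distal tissue Del(CBS1-4) held 23.6, 26.4 and 22.1 CPM and Del(CBS1-5) 19.8, 22.4 and 18.9 CPM, against 16.7, 13.6 and 14.6 CPM in WT. In proximal tissue Del(CBS1-4) held 20.8, 23.8 and 19.1 CPM and Del(CBS1-5) 18.9, 18.4 and 17.4 CPM, against 15.5, 13.8 and 13.0 CPM in WT. Both lines lay above WT in both tissues without overlap. The differences from WT were 0.68 ± 0.09 and 0.43 ± 0.09 in distal tissue, and 0.59 ± 0.12 and 0.38 ± 0.12 in proximal tissue, in Del(CBS1-4) and Del(CBS1-5). In the other 3 lines they lay between -0.02 and 0.11.

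Tmco1, the membrane protein of the endoplasmic reticulum, was lower in Del(CBS1) and Del(CBS1-2). In distal tissue Del(CBS1) held 68.8, 59.6 and 61.3 CPM and Del(CBS1-2) 66.0, 66.1 and 53.0 CPM, against 86.4, 86.9 and 87.5 CPM in WT. In proximal tissue Del(CBS1) held 61.2, 60.5 and 61.5 CPM and Del(CBS1-2) 66.0, 69.1 and 62.2 CPM, against 91.5, 90.8 and 85.2 CPM in WT. The 12 libraries of these lines were below all 6 WT libraries. The differences were -0.46 ± 0.08 and -0.52 ± 0.08 in distal tissue, and -0.55 ± 0.05 and -0.44 ± 0.05 in proximal tissue, in Del(CBS1) and Del(CBS1-2). Del(CBS1-3) lay just above WT without overlap in both tissues, by 0.04 ± 0.07 and 0.11 ± 0.05.

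Pced1a, the PC-esterase gene, was lower in Del(CBS1-2) and Del(CBS1-5). In distal tissue Del(CBS1-2) held 36.2, 34.7 and 37.6 CPM and Del(CBS1-5) 31.4, 34.1 and 33.8 CPM, against 56.0, 47.4 and 45.3 CPM in WT. In proximal tissue Del(CBS1-2) held 38.8, 42.7 and 41.9 CPM and Del(CBS1-5) 36.9, 41.9 and 38.4 CPM, against 53.6, 50.2 and 43.9 CPM in WT. Both lines lay below WT without overlap, though the highest proximal library of each came close to the lowest WT one. The differences were -0.48 ± 0.09 and -0.60 ± 0.09 in distal tissue, and -0.26 ± 0.08 and -0.33 ± 0.08 in proximal tissue. Del(CBS1-3) lay below WT without overlap in distal tissue alone, with a difference of -0.27 ± 0.09, and of -0.19 ± 0.08 in proximal tissue. Vps16, a vacuolar sorting gene that overlaps Pced1a by 323 bases on the other strand, averaged 101 ± 4.47 CPM in distal Del(CBS1-5) and 110 ± 3.83 CPM in distal WT (SD, n = 3 each).

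Mns1, the ciliary coiled-coil gene, stood higher in Del(CBS1-5). The distal libraries held 58.5, 57.6 and 56.9 CPM in Del(CBS1-5), against 32.8, 42.4 and 37.2 CPM in WT, and the proximal ones 44.1, 40.8 and 41.4 CPM in Del(CBS1-5), against 23.9, 25.7 and 27.3 CPM in WT. The groups did not overlap, and the difference was 0.61 ± 0.13 in distal and 0.72 ± 0.11 in proximal tissue. Del(CBS1) lay above WT without overlap in proximal tissue alone, at 36.4, 32.6 and 32.2 CPM. The counts of Mns1 are uncertain, because it overlaps the gene model Gm36948 on its own strand by 3247 bases and Tex9 on the other strand by 3454 bases, and whether counting used strand is not given in the sources used here. Of its distinct 50-base words, 51.3% also occur in other transcripts on one strand or the other. Tex9, a testis-expressed gene, averaged 39.9 ± 1.03 CPM in distal Del(CBS1-5) and 41.5 ± 3.71 CPM in distal WT (SD, n = 3 each).

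Rbm44, the germ-cell RNA-binding gene, was detected above 1 count only in Del(CBS1). Its raw counts were 12, 9 and 42 in distal and 15, 14 and 43 in proximal Del(CBS1) libraries, which are 0.921, 0.593 and 2.69 CPM and 0.985, 0.999 and 3.59 CPM. The 30 libraries of the other lines held 0 or 1 count each, with a sum of 2 counts in the 3 distal and 1 count in the 3 proximal WT libraries. All 6 Del(CBS1) libraries thus stood above every other library, and embryo 3 was highest in both tissues. A count of 0 allows for up to 3 counts in a library, so levels below that in the other lines were not detectable at this depth, and this limit covers counting error only. No 50-base word of Rbm44 transcripts occurs in another gene.

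Counting only mutant groups whose 3 libraries all lay outside the 3 WT libraries in both tissues, each gene had 1 to 3 such lines of 5. Of the 15047 genes tested in both tissues, 18.1% had at least 1 such line on the same side in both. The share was 2.35% in Del(CBS1), 10.1% in Del(CBS1-2), 4.37% in Del(CBS1-3), 3.28% in Del(CBS1-4) and 1.63% in Del(CBS1-5). The 8 genes were chosen for such differences, so nothing is read from their count. Tmco1 had 3, Fignl1, Hmgb2, Pced1a and Cdk5rap1 had 2 each, and Rbm44, AA465934 and Mns1 had 1 each. Del(CBS1-5) was such a line in 5 genes, Del(CBS1) in 4, Del(CBS1-2) in 3, and Del(CBS1-3) and Del(CBS1-4) in 1 each. A larger number of deleted sites did not go with a steady change in any of the 8. For example, Hmgb2 was low in Del(CBS1) and overlapped WT in Del(CBS1-5), and Tmco1 was low in the lines with 1 and 2 sites deleted and not in those with more.

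The level in distal against proximal tissue, averaged over the 6 genotypes, was not used to choose the genes and was tested in all 36 libraries. Fignl1 was higher in distal tissue by 0.36 ± 0.04 (log2, SE; edgeR, Benjamini-Hochberg adjusted p = 4.03e-09), Mns1 by 0.52 ± 0.05 (adjusted p = 2.87e-10), Hmgb2 by 0.58 ± 0.13 (adjusted p = 0.000208) and Cdk5rap1 by 0.12 ± 0.04 (adjusted p = 0.0106). Pced1a was lower in distal tissue by a log2 difference of -0.15 ± 0.04 (adjusted p = 0.000623). These are 5 of the 7 genes with a value. Over all 16292 genes tested, 68.6% differed between the tissues, 34.4% higher and 34.2% lower in distal tissue, so a share of 5 in 7 is near the background and is no result about these genes.

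The other genes did not pass the test between the tissues. Tmco1 differed by 0.00 ± 0.03 (edgeR, adjusted p = 0.883) and AA465934 by 0.00 ± 0.15 (adjusted p = 0.997). For Rbm44 no value could be had, since whole groups held 0 counts. When the 2 tissues of an embryo were compared within the embryo, the standard error of AA465934 was 0.04, against 0.15 without this pairing, and that of Hmgb2 0.05 against 0.13. No call of the 7 genes changed with the pairing, under which 70.4% of all genes differed, 35.4% higher and 35.0% lower in distal tissue. The distal tissue was the higher one in 18 of 18 embryos for Fignl1, Hmgb2 and Mns1, in 15 of 18 for Cdk5rap1, in 11 of 18 for AA465934, in 7 of 18 for Tmco1 and in 3 of 18 for Pced1a.

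**Figure D3:**
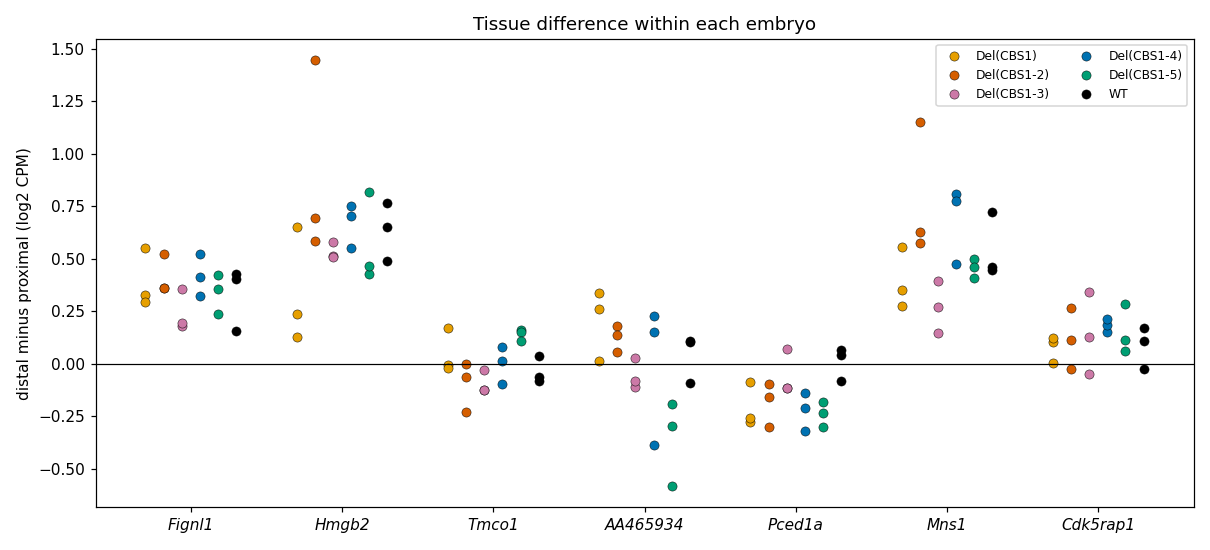
Distal minus proximal level within each embryo (log2 CPM) for 7 of the genes, without Rbm44, 1 point per embryo, coloured by line with WT last. All 18 embryos lie above 0 for Fignl1, Hmgb2 and Mns1, and 15 of 18 lie below 0 for Pced1a.

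The tissue difference itself varied between embryos by unequal amounts. Within embryos it ran from 0.16 to 0.55 in Fignl1, from -0.05 to 0.34 in Cdk5rap1, from -0.23 to 0.17 in Tmco1 and from -0.32 to 0.07 in Pced1a. In Hmgb2 it ran from 0.13 to 1.44, in Mns1 from 0.15 to 1.15 and in AA465934 from -0.58 to 0.34. The highest value of both Hmgb2 and Mns1 belonged to Del(CBS1-2) embryo 1, the embryo with 5.87 CPM of Hmgb2 in proximal tissue.

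Whether a level followed the embryo was described by setting the spread of embryo means within lines against the spread of the tissue difference within lines. For AA465934 the spread of embryo means was 0.52 (log2 SD) and that of the tissue difference 0.18, a ratio of 2.81. For Hmgb2 it was 0.45 against 0.25, a ratio of 1.81. The median ratio over all genes tested was 0.584, and 0.546% of genes reached the ratio of AA465934 and 1.45% that of Hmgb2. Without Del(CBS1-4) embryo 1 the ratio of AA465934 was 1.65. In these 2 genes the spread among embryos of a line was thus wider than the spread of their tissue differences, although the tissue difference of Hmgb2 itself, at 0.58, was larger than its embryo spread. A second description was the number of the 6 lines whose 3 embryos had the same order of levels in both tissues. It was 1 for AA465934, Hmgb2 and Cdk5rap1, 2 for Fignl1 and Mns1, 3 for Tmco1 and Pced1a and 0 for Rbm44. The mean over all genes tested was 1.32, which AA465934 and Hmgb2 did not exceed. In FPKM the number was 3 for Hmgb2, 2 for Rbm44 and Cdk5rap1, 1 for Fignl1, AA465934, Pced1a and Mns1, and 0 for Tmco1.

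By the ratio, the remaining genes were closer to the typical one. The ratio was 1.10 in Pced1a (6.63% of genes at least as high), 1.02 in Fignl1 (8.85%), 0.883 in Cdk5rap1 (14.7%), 0.872 in Tmco1 (15.3%) and 0.791 in Mns1 (21.4%). Rbm44, with 1 count or fewer in 30 libraries, stood at 0.448, and at 0.269 without Del(CBS1) embryo 3. On the log2(FPKM + 0.1) scale the ratio was 0.611 in Pced1a, 0.52 in Mns1 and 0.773 in Rbm44.

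Genes whose levels went with each of the 8 were ranked by Pearson's r over the 36 libraries after the mean of each tissue was removed, among 14058 genes with a mean of at least 1 CPM. These r values are descriptions without a test, because the libraries share embryos and depth. Genes picked by r share the pattern over lines by that choice, so nothing is read from their line levels given below. The 3 genes most like Hmgb2 all lay on its chromosome 8: Rfxank, a subunit of the factor RFX (r = 0.881, 12.6 Mb away), Tpm4, a tropomyosin (r = 0.88, 14.6 Mb) and Smim7 (r = 0.861, 15.1 Mb). Rfxank averaged 34.6 ± 0.962 CPM in distal Del(CBS1) and 48.5 ± 7.18 CPM in distal WT (SD, n = 3 each). Tpm4 averaged 353 ± 6.87 CPM in distal Del(CBS1) and 421 ± 21.1 CPM in distal WT. Both were lower in Del(CBS1), by less than Hmgb2 was.

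For AA465934 the most alike, with gene models that have no name passed over, were Scpep1, a serine carboxypeptidase (r = 0.82, 5.63 Mb away on chromosome 11), Slfn5 of the Schlafen family (r = 0.752, 0.34 Mb away) and Srp9, a part of the signal recognition particle encoded on chromosome 1 (r = 0.749). Scpep1 averaged 68.9 ± 5.36 CPM in proximal Del(CBS1-5) and 83.4 ± 6.70 CPM in proximal WT (SD, n = 3 each), and in distal tissue the libraries overlapped, at 78.5 to 101 CPM in Del(CBS1-5) and 88.5 to 108 CPM in WT. Slfn5 averaged 1.95 ± 0.343 CPM in distal Del(CBS1-5) and 3.25 ± 1.19 CPM in distal WT. Slfn5 was thus at a low level in both groups.

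For Pced1a the most alike were Lzts3, a leucine zipper gene (r = 0.859, 0.22 Mb away on chromosome 2), Zfp661 (r = 0.841, 2.84 Mb away) and the cyclin gene Ccnl2 on chromosome 4 (r = 0.799). Lzts3 averaged 16.8 ± 1.39 CPM in distal Del(CBS1-5) and 23.7 ± 4.51 CPM in distal WT (SD, n = 3 each). For Rbm44 it was D2hgdh, a D-2-hydroxyglutarate dehydrogenase 2.68 Mb away on chromosome 1 (r = 0.771), before Ercc2 (r = 0.695) and Eml2 (r = 0.681), both on chromosome 7. D2hgdh averaged 12.6 ± 3.85 CPM in distal Del(CBS1) and 6.33 ± 1.10 CPM in distal WT, and 11.015 ± 2.67 and 5.89 ± 1.31 CPM in proximal tissue. With 30 libraries at 0 or 1 count, the r values of Rbm44 rest on the 6 Del(CBS1) libraries.

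Fignl1 was most like Zfp113 on chromosome 5 (r = 0.8), G3bp1, a stress granule gene 43.7 Mb away on chromosome 11 (r = 0.787), and Wars on chromosome 12 (r = 0.778). Tmco1 was most like Ptges3 (r = 0.837), Ube2d3 (r = 0.831) and Cul3, which lies 87.0 Mb away on chromosome 1 (r = 0.819). Mns1 was most like Scnm1 (r = 0.718), Snapc5 (r = 0.713, 8.26 Mb away) and Ccnb2, a mitotic cyclin (r = 0.697, 2.03 Mb away), and Cdk5rap1 like Atp5g1 (r = 0.676), Sntg2 (r = 0.602) and Phb (r = 0.602), none of them on chromosome 2.

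Counting chromosomes over the 50 genes most like each one, a view chosen after the values were seen, gave 30% on its own chromosome for Hmgb2, against 5.38% of all genes ranked. For AA465934 it was 26% against 8.2%, for Pced1a 20% against 8.03%, for Mns1 16% against 5.99%, for Rbm44 14% against 6.02%, for Fignl1 14% against 8.2% and for Tmco1 12% against 6.02%. Cdk5rap1 had 0 of 50 on its own chromosome. Within 20 Mb lay 11 of the 50 for Hmgb2 (against 1.38% of all genes ranked), 10 for AA465934 (3.83%), 7 for Pced1a (1.85%), 6 for Rbm44 (1.15%), 6 for Mns1 (1.87%), 3 for Fignl1 (1.07%), 2 for Tmco1 (1.74%) and 0 for Cdk5rap1 (2.08%). No test was made of these shares.

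**Figure D4:**
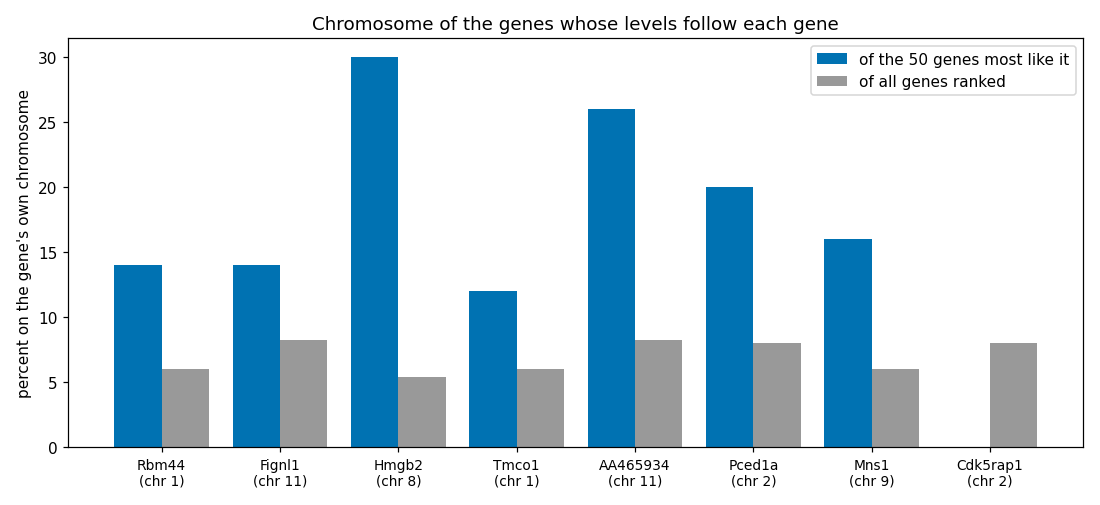
Percent of genes on the same chromosome as each gene, among the 50 genes with the highest Pearson's r (blue) and among all genes ranked (grey). Hmgb2 stands at 30% against 5.38% and Cdk5rap1 at 0% against 8.03%.

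The 8 genes themselves did not move as one. The highest r between a pair of them was 0.764, between Hmgb2 and Tmco1, which were both low in Del(CBS1) and Del(CBS1-2), and Fignl1 and Mns1 followed at 0.604. The lowest were -0.681 between Hmgb2 and Rbm44 and -0.661 between AA465934 and Cdk5rap1. The 2 genes of chromosome 2, Pced1a and Cdk5rap1, had an r of 0.117, and both were outside the WT range in Del(CBS1-5), in opposite directions.

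Genes that start within 1 Mb of the 8 were not chosen for their levels and were tested for differences among the 6 genotypes. In distal tissue 40 of 155 such genes differed (25.8%, against 19.7% of all genes), and in proximal tissue 29 of 165 (17.6%, against 15.1%). In both tissues 12 of 155 differed, against 7.52% of the 15047 genes tested in both. By gene, 4 of the 12 were beside Cdk5rap1, 3 beside AA465934, 2 each beside Pced1a and Tmco1 and 1 beside Mns1. That last one is Gm36948, a gene model that lies within Mns1 on the same strand, so reads of both cannot be told apart. Beside Hmgb2, 7 of 11 genes differed in distal and 1 of 13 in proximal tissue. The count beside Hmgb2 alone was not recomputed. Over the neighbours of all 8 genes, the distal count was 17 to 26 when certain single embryos were left out. These were Del(CBS1) 3, Del(CBS1-2) 1, 2 or 3, Del(CBS1-3) 1, Del(CBS1-4) 1 or 3, and Del(CBS1-5) 1 or 2. Calls over all genes fell too. Without Del(CBS1-2) 2, 17 neighbours and 1675 of all genes differed, and with replicate numbers blocked 23 and 2261. In these settings the distal share of neighbours was near that of all genes. With DESeq2 (52 and 3962) it stayed above, so the distal excess depended on the setting. The proximal count was 12 to 18 without any one of Del(CBS1-2) 1, 2 or 3, Del(CBS1-3) 1, or Del(CBS1-5) 1 or 2.

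**Figure D5:**
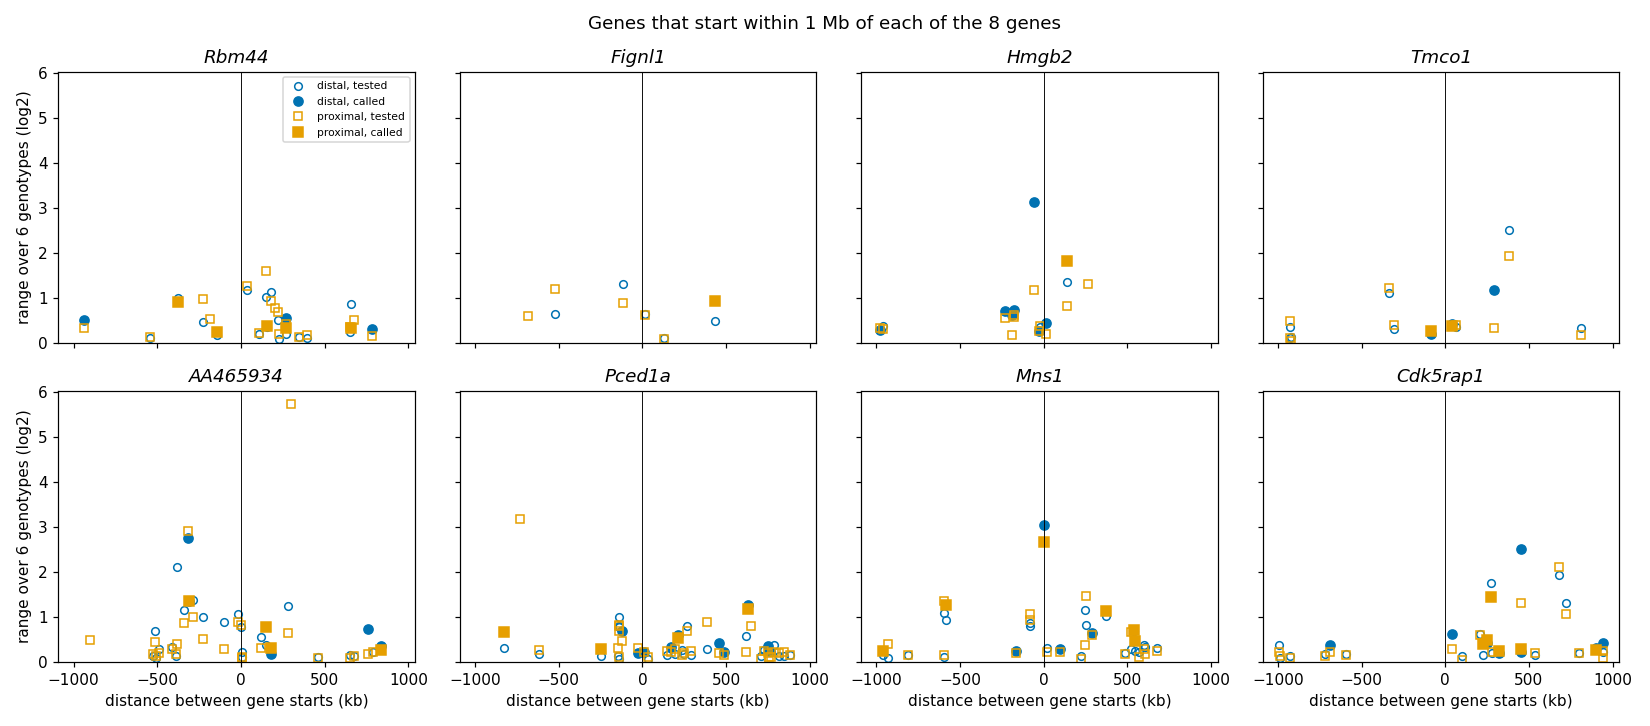
Range of the 6 genotype values (log2) of each tested gene that starts within 1 Mb of one of the 8 genes, against the distance between the gene starts (kb). Circles are distal and squares proximal tests, filled where the gene differed among the genotypes (edgeR, adjusted p under 0.05); beside Hmgb2, 7 of 11 circles and 1 of 13 squares are filled.

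Slfn9, of the Schlafen family and 313 kb from AA465934, differed among genotypes in both tissues (edgeR, adjusted p = 0.00471 in distal and 0.00743 in proximal tissue) and kept this call in all 24 recomputations of each. It was lower in Del(CBS1-3), at -0.64 in distal and -0.55 in proximal tissue (log2 against WT), and higher in Del(CBS1-4), by 0.72 and 0.50, and in Del(CBS1-5), by 0.68 and 0.79. It was thus low in the line where AA465934 was high, and high in the lines where AA465934 was low. Acaca, the acetyl-CoA carboxylase, and Taf15, an RNA-binding TBP-associated factor, differed with ranges of 0.36 and 0.18 in distal tissue (adjusted p = 0.038 and 0.0471), and their calls did not hold in most recomputations of the distal test.

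Aldh9a1, an aldehyde dehydrogenase gene 41.6 kb from Tmco1, differed in both tissues (edgeR, adjusted p = 0.00354 in distal and 0.00447 in proximal tissue), also in all 24 recomputations of each. Its difference from WT was 0.32 in Del(CBS1) and 0.35 in Del(CBS1-2) in distal tissue, and 0.26 and 0.37 in proximal tissue. In these same lines Tmco1 was lower. Uck2, a uridine-cytidine kinase gene on the other side of Tmco1, had a range of 0.19 in distal and 0.27 in proximal tissue (adjusted p = 0.0285 and 0.0309). Its call held in 17 of 24 recomputations in distal and 13 of 24 in proximal tissue.

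Lzts3, 215 kb from Pced1a and the gene most like it, differed in both tissues (edgeR, adjusted p = 0.0146 in distal and 0.0304 in proximal tissue), with its lowest values in Del(CBS1-5), -0.52 and -0.33 against WT. Adam33, a metalloprotease gene 633 kb away, differed too (adjusted p = 0.0136 and 0.0282), at -0.69 and -0.35 in Del(CBS1-5) and 0.58 and 0.49 in Del(CBS1-4). The proximal call held in 15 of 24 recomputations for Lzts3 and in 17 of 24 for Adam33. Beside Cdk5rap1, Raly, an RNA-binding gene, differed in both tissues with ranges of 0.21 and 0.28 (adjusted p = 0.00563 and 0.0142). Pxmp4 (adjusted p = 0.0293 and 0.0403) and Dynlrb1 (adjusted p = 0.03 and 0.045) also passed, but the proximal call of each was lost in most recomputations. Raly stood at 0.13 in distal and -0.15 in proximal Del(CBS1-4), and did not repeat the higher values of Cdk5rap1.

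Genes that work with the 8 were read from lists in the same tests among the 6 genotypes. Over 6 such lists 14 of 74 genes differed in distal tissue (18.9%, against 19.7% of all genes), or 9 without Del(CBS1-2) embryo 2, and 17 of 80 in proximal tissue (21.2%, against 15.1%), or 11 without Del(CBS1-2) embryo 1. The distal share is near that of all genes, and the counts of single lists are small. Of 19 homologous recombination genes, the setting of Fignl1, 3 differed in distal and 8 in proximal tissue, with 3 in both. The distal count was 5 without any one of WT 2, Del(CBS1) 1 or Del(CBS1-3) 3. The proximal count was 4 to 5 without any one of Del(CBS1) 3, Del(CBS1-2) 1, 2 or 3, Del(CBS1-4) 3, or Del(CBS1-5) 1 or 2. Their median difference from WT lay between -0.13 and 0.02 over the lines in distal tissue and between -0.18 and 0.09 in proximal tissue, against -0.008 to 0.005 and -0.003 to 0.004 over all genes. Brca2 (edgeR, adjusted p = 0.00619 in distal and 0.015 in proximal tissue) was at -0.36 and -0.23 in Del(CBS1-2), and Xrcc3 (adjusted p = 0.00792 and 0.024) at -0.20 and -0.52 in the same line.

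Among 8 tested genes of HMG and linker chromatin proteins, the setting of Hmgb2, 2 differed in distal and 5 in proximal tissue. The distal count was 0 without Del(CBS1-2) embryo 2 and 1 without any one of Del(CBS1) 1, 2 or 3, Del(CBS1-2) 1 or 3, Del(CBS1-4) 1 or 3, or Del(CBS1-5) 2, and the proximal count was 3 without Del(CBS1-4) 3 or Del(CBS1-5) 1. Hmgn2, a nucleosome-binding HMG protein, stood at -0.66 in distal and -0.71 in proximal Del(CBS1), at -0.61 and -0.81 in Del(CBS1-4), and at 0.80 and 0.75 in Del(CBS1-5) (edgeR, adjusted p = 0.0342 in distal and 0.0388 in proximal tissue). The range was wide, yet the call held in 11 of 24 recomputations in distal and 10 of 24 in proximal tissue. H1f0, a linker histone, had its highest distal value of 0.23 in Del(CBS1-2) (adjusted p = 0.0157 in distal and 0.021 in proximal tissue). Of 15 translocon genes of the endoplasmic reticulum, the setting of Tmco1, 1 differed in each tissue. Of 15 tRNA modification genes, the setting of Cdk5rap1, 1 differed in distal tissue. In proximal tissue 0 of the 15 did in edgeR, with 1 at an unadjusted p under 0.05, and 1 did in DESeq2.

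Of 19 germ-cell and meiosis genes in the count table, 7 passed the count filter in distal and 11 in proximal tissue. Of these 3 differed in distal tissue, or 1 without Del(CBS1-2) embryo 3, and 1 in proximal tissue, or 2 to 3 without any one of Del(CBS1) 2 or 3 or Del(CBS1-3) 2. Tdrd1, a Tudor-domain gene of the piRNA pathway, was above WT in all 5 lines, by 0.86 in Del(CBS1), 1.13 in Del(CBS1-2), 0.30 in Del(CBS1-3), 0.74 in Del(CBS1-4) and 0.73 in Del(CBS1-5) in distal tissue (edgeR, adjusted p = 0.0265), and by 0.33 to 1.23 in proximal tissue (adjusted p = 0.0164). Rbm44, in contrast, was above 1 count in Del(CBS1) alone. Of motile cilia genes, the setting of Mns1, 4 of 10 differed in distal tissue, or 2 without Del(CBS1-2) embryo 2, and 2 of 12 in proximal tissue. Rfx3, a ciliogenic transcription factor, was lowest in Del(CBS1-2), at -0.51 and -0.39 (adjusted p = 0.00471 and 0.0165). Tekt2, a tektin of cilia, stood at 0.47 and 0.68 in Del(CBS1-2) and at -0.35 and -0.32 in Del(CBS1-5) (adjusted p = 0.0312 and 0.00811), where Mns1 was high. The distal call of Tekt2 held in 16 of 24 recomputations.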

How the data were processed

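Members and gene lists were chosen with earlier results of these data known. The authors deposited whole-number read counts per gene for 36 libraries and, per the file headers, Cufflinks FPKM values, with every column matched to a sample title. Per the submitters' processing notes, build mm10 was used with STAR 2.7.0 and Cufflinks 2.2.1, besides bedtools 2.27.1 and cutadapt 1.16, with no role stated. The name the authors gave the deposited count table names HTSeq, with settings not given in the sources used here. There are 50833 genes with counts and 55052 genes with FPKM. Starts in the FPKM table count from 0, since adding 1 gives the GENCODE M21 start in 96.4% of 54801 genes, and are printed counting from 1.

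Counts were tested in R 4.3.3 with the quasi-likelihood F test of edgeR 4.0.16, after TMM scaling and filterByExpr, with Benjamini-Hochberg adjustment over all genes and a threshold of 0.05. The tissue difference was the mean over 6 genotypes in 1 fit of 36 libraries. Differences among the genotypes were a test with 5 degrees of freedom in the 18 libraries of each tissue, applied to neighbours and lists only. CPM are counts scaled by TMM over 36 libraries, and 0.5 counts were added for log2 values. Scripts were tested on simulated data. Alternatives were DESeq2 1.42.0 and its size factors, no filter, limma 3.58.1 on log2(FPKM + 0.1) and log2(FPKM + 1), a replicate block, other windows and leaving out each embryo.

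Replicates of 1 group differed by more than sampling noise (chi-square per degree of freedom 2.66 to 21.2 over 36 pairs), so all were kept. Distal and proximal libraries of a genotype that share a number were paired by embryo. Their deviations from the group means correlated in 18 of 18 pairs (r 0.239 to 0.681 over 11357 genes), each distal library correlated best with its own number, and their sex, read from Xist and Y-linked genes in FPKM, matched in all 18. The p-values among genotypes, with 1 library per embryo in each test, thus measure spread among embryos. Those of the tissue difference come from a fit without pairing. It took the 2 tissues of an embryo as separate libraries, and the paired fit was the alternative. Females and males numbered 3 and 0 in Del(CBS1-2), 2 and 1 in Del(CBS1-4), Del(CBS1-5) and WT, and 1 and 2 in Del(CBS1) and Del(CBS1-3).

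Named were all 8 genes, up to 3 neighbours per gene and up to 4 genes per list called in both tissues by smallest distal p, and the 3 genes most like each in level. Gene models without a name were passed over. Some genes that this rule selects are not reported here. Words of 50 bases were compared with all other GENCODE M21 transcripts on both strands.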

Additional observations from a re-analysis of the deposited data

Results flagged for a closer look

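The tissue difference of 2 of the genes had opposite signs in different lines, with all 3 embryos of a line on the same side, and the difference between lines was not tested. In Tmco1, distal minus proximal (log2, SE without pairing) was 0.14 ± 0.07 in Del(CBS1-5), with all 3 embryos above 0. It was -0.09 ± 0.07 in both Del(CBS1-2) and Del(CBS1-3), with all 3 embryos of each below 0. Of these, Del(CBS1-2) embryo 1 was at -0.0003, which is no difference. In AA465934 the difference was 0.16 ± 0.36 in Del(CBS1) and 0.12 ± 0.37 in Del(CBS1-2), with all embryos above 0. It was -0.36 ± 0.52 in Del(CBS1-5), with all 3 below 0. Each of these AA465934 values lay within 1 SE of 0. The AA465934 levels in Del(CBS1-5) were 53 to 77 counts per library. Groups held 3 libraries, so a single library was not compared with its group for distance.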

How the results depend on the processing

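Under the alternatives run, the 5 genes that differed between the tissues kept their direction and their side of the threshold, with 1 exception. Tmco1 (-0.03 to 0.01, log2) and AA465934 (-0.03 to 0.02) lay on both sides of 0 and never passed. Cdk5rap1 had an adjusted p of 0.0531 in edgeR with no filter (log2 difference 0.12). With the replicate block the tissue values were 0.36 in Fignl1, 0.59 in Hmgb2, 0.52 in Mns1, 0.13 in Cdk5rap1, -0.15 in Pced1a, -0.01 in Tmco1 and -0.01 in AA465934, and no call of the 7 genes changed. Between genotypes, equal numbers mark no shared embryo.

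Genes that differed among genotypes numbered 3022 in distal tissue, and 1558 and 1572 with FPKM + 0.1 and + 1, and 2389 in proximal tissue, and 4257 with no filter, 1343 and 1371 with FPKM and 3620 with DESeq2. Neighbours numbered 40 in distal tissue, and 23 with the replicate block and 20 with either FPKM setting, and 29 in proximal tissue, and 46 with no filter and 19 with FPKM + 0.1. Listed genes numbered 14 in distal tissue, and 23 with no filter, 7 with either FPKM setting and 22 with DESeq2, and 17 in proximal tissue, and 27 with no filter and 9 with either FPKM setting. The cause of these shifts was not tested. With the replicate block all genes called numbered 2261 in distal tissue, and the neighbours fell along with them. Leaving out each embryo gave 10954 to 11193 genes between tissues, 1675 to 3512 and 1191 to 2879 among genotypes in distal and proximal tissue, 17 to 44 and 12 to 32 neighbours, and 9 to 19 and 11 to 19 listed genes. Distal genes were 1675 to 1914 without Del(CBS1-2) embryo 2 or 3 or Del(CBS1-5) embryo 1 or 2, and proximal genes 1191 to 1533 without any one Del(CBS1-2) embryo, Del(CBS1-3) embryo 1 or Del(CBS1-5) embryo 1 or 2.

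Of 1680 recomputed differences of the 8 genes from WT, 8 moved by 1 SD or more, 7 of them in Rbm44 on the FPKM scale. This SD was taken over single libraries of the groups compared. Leaving out 1 embryo cannot shift a group mean that far, so for those settings the count cannot show stability. Without embryo 1, AA465934 in distal Del(CBS1-4) went from -1.56 to -2.21 (mean log2 difference from WT) and stayed under 1 SD. Depth limits Rbm44 alone, since 30 of its 36 libraries held at most 1 count.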
